A study of Homo sapiens with 3 samples.

Results

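The 8 genes described here encode the carriers through which platinum drugs are thought to enter and leave cells, and the copper chaperone that works beside them. They were chosen by name: SLC31A1, SLC31A2, ATP7A, ATP7B, ATOX1, SLC22A2, SLC22A3 and SLC47A1. All 8 were among the 19220 genes of the count table. The libraries came from CAL27, a human oral squamous cell carcinoma (OSCC) line labelled wild type and kept without drug, from its 5-fluorouracil-resistant derivative CAL27/5FU kept in 10 μM 5FU, and from its oxaliplatin-resistant derivative CAL27/OXA kept in 10 μM OXA. All 3 lines were grown in high-glucose DMEM with fetal bovine serum. The study's methods describe CAL27/5FU as selected by rising 5FU concentrations. How CAL27/OXA was selected, and whether either derivative is a single clone, is not given in the sources used here. For each line 1 library has a sample label and was used, so no difference below has a replicate check, no p-value was computed, and differences between libraries of one line are unknown here. Intervals cover counting error only.

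Copper enters mammalian cells as a reduced ion through the SLC31A1 channel, is handed by ATOX1 to the copper-pumping ATPases ATP7A and ATP7B at the Golgi, and leaves the cell or enters secreted enzymes through them. Platinum drugs bind the same sulfur-rich sites, and the copper route has long been studied for their uptake and export. Oxaliplatin is in addition known as a substrate of organic cation transporters of the SLC22 family, and of the MATE exporters of the SLC47 family, which carry organic cations in kidney and liver. 5FU is not a platinum drug, so CAL27/5FU gives the levels of these genes in a derivative selected with another agent.

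The library of CAL27 held 41786182 counts, that of CAL27/5FU 37297713 and that of CAL27/OXA 43455488. Counts were scaled with TMM factors and expressed as CPM, the counts relative to the effective library size, in which 1 count was worth 0.0257 in CAL27, 0.0255 CPM in CAL27/5FU and 0.0225 CPM in CAL27/OXA. The labelled cell type was checked on 10 squamous epithelial markers, all of which were over 3 counts in all 3 libraries. They summed to 6959.6 FPKM in CAL27, 1877 FPKM in CAL27/5FU and 2626 FPKM in CAL27/OXA, and the most abundant was KRT5 in CAL27 (2973 FPKM) and CAL27/5FU (536 FPKM) and SFN in CAL27/OXA (916 FPKM). KRT14, a basal keratin, had 58222, 948 and 8423 counts in CAL27, CAL27/5FU and CAL27/OXA. TP63, the squamous master regulator, had 23645, 9759 and 29498 counts. CDH1, the epithelial cadherin, had 14800, 13459 and 15076 counts, and EPCAM, a general epithelial marker, 9428, 12457 and 10990 counts, so these were not lower as the keratins were. The junction genes PERP, with log2 ratios of -1.51 and -0.99, and DSG3, with -1.27 and -1.03, were lower in both derivatives. SFN had a log2 ratio of -1.08 in CAL27/5FU but 0.08 in CAL27/OXA. The lower marker sums, carried largely by keratins, went with both drug-resistant libraries, and their part in the values below was not tested. In such bulk RNA fewer expressing cells and less RNA per cell cannot be told apart.

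Markers of other cells were low. Of 6 fibroblast markers COL3A1 was at 0 counts in all 3 libraries, and the list summed to 7.51, 11.9 and 14.9 FPKM in CAL27, CAL27/5FU and CAL27/OXA, led by COL1A1 and then, in both derivatives, by LUM. LUM had 120, 414 and 877 counts and COL1A2 90, 300 and 212 counts, higher in both derivatives. COL1A1 was lower in both, with 1387, 1068 and 1050 counts. Of 5 leukocyte markers PTPRC had 2, 0 and 0 counts, while CD68, a lysosomal gene that epithelial cells also express, made up nearly all of the sums of 41.6, 27.2 and 64.2 FPKM. The 4 endothelial markers summed to 0.437, 2.29 and 1.06 FPKM, with CDH5 the most abundant. CDH5 had 43, 338 and 163 counts, higher in both derivatives, while VWF had 44, 19 and 29 and PECAM1 13, 6 and 11 counts. The 5 kidney and liver markers, from the organs in which SLC22A2 and SLC47A1 are best known, summed to 0.0407, 0.102 and 0.114 FPKM, and SLC22A6 was at 0 counts throughout.

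RefSeq (GRCh38.p14) promoters could be matched for 5 of the 8 genes, as 7 entries. The 250 bases before the start are shown for SLC31A1 and ATOX1, which were abundant in all 3 libraries, and for SLC22A2, which was hardly counted, so that promoters of counted and hardly counted members can be seen side by side. Capitals mark GGGCGG on either strand, the letters of a GC box. The windows are chr9:113221294-113221543 on the plus strand for SLC31A1, chr5:151758632-151758881 on the minus strand for ATOX1 and chr6:160258822-160259071 on the minus strand for SLC22A2.
SLC31A1: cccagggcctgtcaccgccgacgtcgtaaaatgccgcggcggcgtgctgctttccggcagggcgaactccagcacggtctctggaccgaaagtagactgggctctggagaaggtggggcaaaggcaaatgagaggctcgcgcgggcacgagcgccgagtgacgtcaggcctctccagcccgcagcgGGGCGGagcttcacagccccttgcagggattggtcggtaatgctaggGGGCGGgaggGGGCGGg
ATOX1: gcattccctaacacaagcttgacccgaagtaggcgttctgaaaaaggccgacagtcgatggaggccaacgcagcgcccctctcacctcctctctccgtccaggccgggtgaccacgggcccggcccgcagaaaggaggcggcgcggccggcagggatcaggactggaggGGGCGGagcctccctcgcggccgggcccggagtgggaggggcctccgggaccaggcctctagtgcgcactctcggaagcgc
SLC22A2: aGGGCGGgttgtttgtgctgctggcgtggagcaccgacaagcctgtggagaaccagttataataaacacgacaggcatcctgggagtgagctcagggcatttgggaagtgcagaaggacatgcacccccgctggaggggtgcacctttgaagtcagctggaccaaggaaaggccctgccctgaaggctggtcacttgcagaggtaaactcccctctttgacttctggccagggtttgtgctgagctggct

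The SLC31A1 window held 3 GC boxes and 25 CpG dinucleotides, and the ATOX1 window 1 GC box and 24 CpG. The SLC22A2 window also held 1 GC box, but only 5 CpG. Of all 35116 promoter entries of this length, 42.6% held a GC box, and the median number of CpG was 11. The ATP7A window had 20 CpG and no GC box, and the ATP7B windows, which begin at 3 different starts, had 20, 24 and 2 CpG and 3, 3 and 0 GC boxes. Letters of metal response elements were searched on both strands as TGCACNC, found in 9.87% of all entries, and TGCGCNC, found in 16.8%. Matches were counted per strand. The first occurred 2 times in the SLC22A2 window, the second 2 times in the ATOX1 window and 2 times in the second ATP7B window. In the ATOX1 window both matches are 1 place, a stretch that reads the same on both strands. Neither was in the SLC31A1 or ATP7A window. A match is a description of the letters, not a binding site.

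Of the 8 genes, 6 averaged 10 counts or more and were compared as log2 ratios of CPM with a prior count of 2. The other 2, SLC22A2 and SLC47A1, were under this minimum. SLC22A3 was the one gene past 2-fold in any comparison. It was lower in CAL27/5FU than in CAL27, as were 6.72% of all 13676 tested genes, and lower in CAL27/OXA than in CAL27, as were 9.28%. It was also higher in CAL27/OXA than in CAL27/5FU, as were 4.18%. When the whole counting interval had to be past 2-fold, SLC22A3 stayed lower in CAL27/5FU, where 4.34% of all genes were lower and 5.48% higher, and higher in CAL27/OXA than in CAL27/5FU, where 2.33% were higher and 5.18% lower. By that rule 0 of the 6 genes were called in CAL27/OXA against CAL27, where 6.32% of all genes were lower and 3.85% higher. In each case 1 gene of 6 at most was called, too few to set the group apart from these backgrounds. The first and second comparisons share the CAL27 library, and the third shares a library with each of them.

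**Figure D1:**
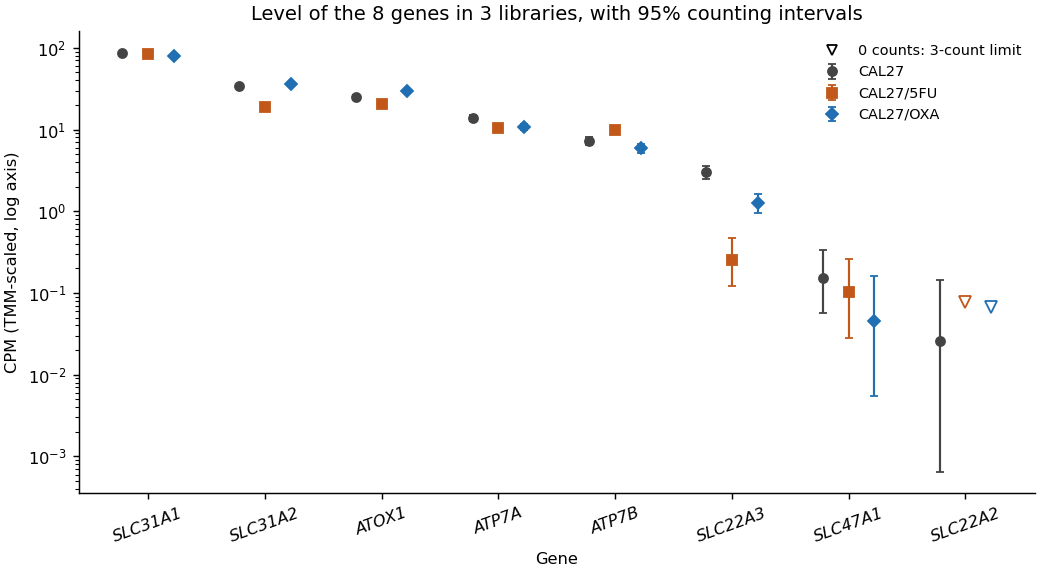
Level of each of the 8 genes in the libraries of CAL27, CAL27/5FU and CAL27/OXA, in TMM-scaled CPM on a log axis, with exact 95% Poisson intervals on the counts as bars. Triangles stand at the limit of 3 counts for libraries with 0 counts. SLC22A3 spans 3.004, 0.255 and 1.26 CPM, while SLC31A1 stays between 79.6 and 85.3 CPM.

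SLC31A1 encodes CTR1, the high-affinity copper importer and the best-studied route of platinum uptake in this set. It lies on chromosome 9 of GRCh38 from 113221562 to 113264492 (GENCODE 29, ENSG00000136868.10, plus strand). It had 3324 counts in CAL27, 3299 counts in CAL27/5FU and 3536 counts in CAL27/OXA, or 85.3, 84.3 and 79.6 CPM. The levels of the 3 libraries lay close together. The log2 ratio was -0.02 (95% interval -0.09 to 0.05) for CAL27/5FU and -0.10 (-0.17 to -0.03) for CAL27/OXA against CAL27, and both turned positive, to 0.15 and 0.03, when counts were scaled by library totals alone. The direction of these small differences thus depended on the scaling.

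SLC31A2 encodes CTR2, a relative of CTR1 found mainly on internal membranes, which is known to affect how CTR1 is processed. It lies close to SLC31A1, with FKBP15 between them, at 113150942 to 113164137 on the plus strand of the same chromosome (ENSG00000136867.10). It had 1310 counts in CAL27, 737 counts in CAL27/5FU and 1608 counts in CAL27/OXA, which are 33.6, 18.8 and 36.2 CPM. CAL27/5FU was the low library and the other 2 were close together. The log2 ratio was -0.84 (-0.97 to -0.71) in CAL27/5FU, or 1.78-fold lower, and -0.66 there by total counts. In CAL27/OXA it was 0.11 (7.1e-05 to 0.21), and CAL27/OXA against CAL27/5FU gave 0.94 (0.82 to 1.07). Of all tested genes, 8.83% had a lower ratio in CAL27/5FU.

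The SLC31A2 values carry a limit. In GENCODE 29, 1579 of its 2504 exonic bases (63.1%) are also exonic in FKBP15 on the opposite strand, and the library kit named in the labels is one that does not mark strand. Reads from both genes in these bases then cannot be told apart, and the strand setting used in counting is not given in the sources used here. Counts and FPKM imply a length of 1774 bases for SLC31A2, so the share in the gene model counted is not known. FKBP15 had 3934, 2440 and 3310 counts in CAL27, CAL27/5FU and CAL27/OXA, with log2 ratios of -0.70 and -0.44 in the derivatives against CAL27. It was thus lower together with SLC31A2 in CAL27/5FU but not in CAL27/OXA, and its part in the SLC31A2 values was not tested.

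ATOX1 encodes the chaperone that carries copper from the importer to both ATPases and can itself bind platinum. It lies on chromosome 5 from 151742316 to 151772532 on the minus strand (ENSG00000177556.11). It had 978 counts in CAL27, 795 counts in CAL27/5FU and 1298 counts in CAL27/OXA, or 25.1, 20.3 and 29.2 CPM. The derivatives lay on either side of CAL27, with log2 ratios of -0.31 (-0.44 to -0.17) in CAL27/5FU and 0.22 (0.10 to 0.34) in CAL27/OXA. Against each other, CAL27/OXA was higher than CAL27/5FU by a log2 ratio of 0.52 (0.40 to 0.65), and 11.98% of the tested genes had a larger ratio. Of its 5239 exonic bases in GENCODE 29, 2.48% are shared with G3BP1 on the opposite strand. Counts and FPKM imply a length of only 489 bases for ATOX1, so the share in the gene model counted is not known.

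ATP7A encodes the copper ATPase of most tissues other than liver, linked to export and sequestration of platinum. It lies on chromosome X from 77910656 to 78050395 on the plus strand (ENSG00000165240.19). It had 540 counts in CAL27, 413 counts in CAL27/5FU and 474 counts in CAL27/OXA, or 13.9, 10.6 and 10.7 CPM. Both derivatives were lower than CAL27, and by nearly the same amount. The log2 ratios were -0.39 (-0.58 to -0.21) and -0.38 (-0.56 to -0.20), each well inside 2-fold, and the difference between the derivatives was 0.02 (-0.18 to 0.21). The neighbouring gene PGK1, which encodes a glycolytic kinase, spans nearly the same stretch on the same strand in GENCODE 29 and shares 97 exonic bases (0.888%) with it. A pseudogene on this strand, AL356235.1, shares 287 exonic bases (2.63%) with ATP7A and is not among the counted genes. These shares are of 10920 exonic bases in GENCODE 29, while counts and FPKM imply a length of 8414 bases for ATP7A. PGK1 had log2 ratios of -0.79 and -0.91, and its part in the ATP7A values was not tested.

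ATP7B encodes the copper ATPase of liver, the Wilson disease protein, also linked to platinum resistance in cultured tumor cells. It lies on chromosome 13 from 51930436 to 52012125 on the minus strand (ENSG00000123191.14). It had 281 counts in CAL27, 390 counts in CAL27/5FU and 263 counts in CAL27/OXA, or 7.21, 9.96 and 5.92 CPM. It was highest in the 5FU derivative and lowest in the oxaliplatin derivative. The log2 ratio was 0.46 (0.24 to 0.69) in CAL27/5FU and -0.28 (-0.53 to -0.04) in CAL27/OXA, and CAL27/OXA against CAL27/5FU gave -0.75 (-0.98 to -0.52), a ratio that 11.8% of the tested genes went below. ATP7B was the only one of the 6 tested genes with a positive ratio in CAL27/5FU under the main scaling.

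**Figure D2:**
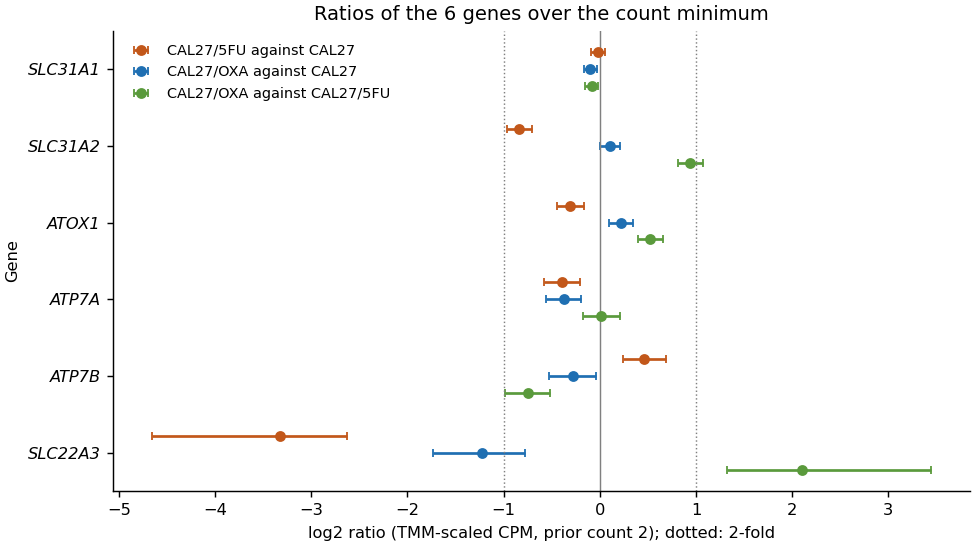
Log2 ratios of the 6 genes that averaged 10 counts or more, in the 3 comparisons, as points with exact 95% counting intervals. The solid line is equality and the dotted lines 2-fold. Only SLC22A3 lies past 2-fold, at -3.33, -1.22 and 2.10.

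SLC22A3 encodes OCT3, an organic cation transporter of many tissues that is known to take up oxaliplatin. It lies on chromosome 6 from 160348268 to 160452581 on the plus strand (ENSG00000146477.5), and no other gene of GENCODE 29 overlaps it. It had 117 counts in CAL27, 10 counts in CAL27/5FU and 56 counts in CAL27/OXA, or 3.004, 0.255 and 1.26 CPM. CAL27 was the highest library and CAL27/5FU by far the lowest, at 8.51% of the CAL27 level, while CAL27/OXA was at 42.0% of it. The log2 ratio was -3.33 (-4.65 to -2.63) in CAL27/5FU, where the whole interval was past 2-fold and the ratio ranked 111 from the lowest of 13676. In CAL27/OXA it was -1.22 (-1.74 to -0.78), so that the interval reached within 2-fold. CAL27/OXA was higher than CAL27/5FU by a log2 ratio of 2.10 (1.32 to 3.44). The derivative kept in 5FU thus had the lower level, and the one kept in the platinum drug lay between it and CAL27.

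The gene is low in abundance, and the size of its ratios depends on how low values are treated. Computed from FPKM with 0.1 added, the log2 ratios were -2.40 in CAL27/5FU and -0.95 in CAL27/OXA, and with 1 added, which is above its FPKM in CAL27, they were -0.78 and -0.42. Among 11541 genes that averaged 100 counts or more, ETFB and FGFBP1 were among the 3 whose pair of ratios to CAL27 lay nearest to that of SLC22A3, at Euclidean distances of 0.31 and 0.53 on the log2 scale. ETFB, a mitochondrial electron carrier subunit, had 2576 counts in CAL27, 224 counts in CAL27/5FU and 1489 counts in CAL27/OXA. This likeness rests on 3 libraries.

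SLC22A2 and SLC47A1 encode OCT2 and MATE1, the cation importer and exporter of the kidney tubule. SLC22A2, on chromosome 6 from 160171061 to 160277638 on the minus strand, had 1 count in CAL27 and 0 in both derivatives. SLC47A1, on chromosome 17 from 19495385 to 19579034 on the plus strand, had 6 counts in CAL27, 4 counts in CAL27/5FU and 2 counts in CAL27/OXA. A count of 0 allows up to 3 counts, which are 0.0766 CPM in CAL27/5FU and 0.0675 CPM in CAL27/OXA. Neither gene could be compared between the lines at this depth: the interval of the SLC47A1 ratio ran from -5.12 to 0.71 in CAL27/OXA.

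Levels of different genes were compared per length, on the FPKM values. In CAL27 the order was ATOX1 (47.9 FPKM), SLC31A2 (17.7), SLC31A1 (16.6), ATP7A (1.54), ATP7B (1.06), SLC22A3 (0.864), SLC47A1 (0.0438) and SLC22A2 (0.00952). ATOX1 and both SLC31 genes were thus well above the exporting ATPases, while SLC22A3 and SLC22A2 were below them. The first place of ATOX1 rests on its short implied length of 489 bases, against 4779 for SLC31A1. By CPM SLC31A1 was the higher in CAL27, at 85.3 against 25.1. SLC31A1 had 10.8 times the FPKM of ATP7A in CAL27, 14.1 times in CAL27/5FU and 13.1 times in CAL27/OXA. By counting error, SLC31A2 and SLC31A1 overlapped in CAL27, as did ATP7B and SLC22A3, and SLC47A1 and SLC22A2 overlapped in all 3 libraries. In CAL27/5FU SLC22A3 also overlapped SLC47A1.

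The order changed at 2 places in CAL27/5FU. SLC31A1 (18.5 FPKM) stood above SLC31A2 (11.1 FPKM), and ATP7B (1.65 FPKM) above ATP7A (1.32 FPKM), in each case with intervals that did not overlap. In CAL27/OXA the order was that of CAL27, with ATOX1 at 61.1 FPKM, SLC31A2 at 20.9, SLC31A1 at 17.0, ATP7A at 1.30, ATP7B at 0.952 and SLC22A3 at 0.398. ATP7A had 1.45 times the FPKM of ATP7B in CAL27, 0.800 times in CAL27/5FU and 1.36 times in CAL27/OXA.

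**Figure D3:**
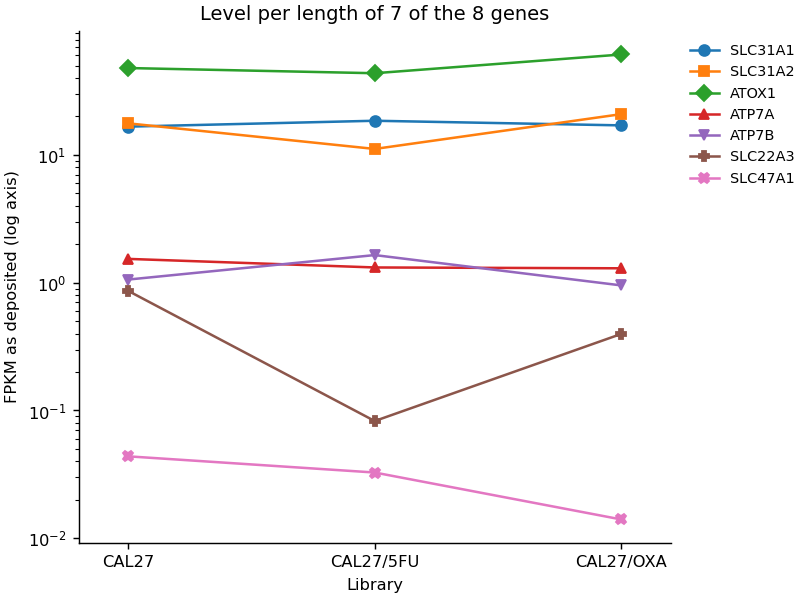
Deposited FPKM values of 7 of the 8 genes in the 3 libraries on a log axis, 1 line per gene. SLC22A2, listed at 0 in both derivatives, is left out. The lines of SLC31A1 and SLC31A2 and those of ATP7A and ATP7B cross between CAL27 and CAL27/5FU, and ATOX1 is highest throughout.

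The other carriers of the SLC22 and SLC47 families, with SLC29A4, formed a list of 9 genes, 7 of them tested. In CAL27/5FU 2 of the 7 were more than 2-fold lower and 0 higher, and in CAL27/OXA 3 were lower and 0 higher. Over all tested genes 6.72% were lower and 8.46% higher in CAL27/5FU, and 9.28% were lower and 6.54% higher in CAL27/OXA. SLC22A23, a carrier without a settled substrate, had 2810 counts in CAL27, 793 counts in CAL27/5FU and 555 counts in CAL27/OXA, with log2 ratios of -1.83 and -2.52. SLC47A2, the MATE2 exporter that lies near SLC47A1, had 806, 256 and 314 counts and ratios of -1.65 and -1.54. Unlike SLC47A1, it was well counted in all 3 libraries and lower in both derivatives.

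SLC29A4, a monoamine carrier, had 70, 50 and 10 counts, with a log2 ratio of -0.48 (-1.05 to 0.05) in CAL27/5FU and -2.75 (-4.12 to -2.03) in CAL27/OXA. It was the carrier of this list with the lowest ratio in CAL27/OXA, and CAL27/OXA against CAL27/5FU gave -2.27. The carnitine carrier SLC22A5 had the highest mean FPKM of the list, with ratios of 0.77 and 0.87, both within 2-fold. The list had a median log2 ratio of -0.48 in CAL27/5FU and 0.19 in CAL27/OXA, against -0.0035 and 0.0055 over all tested genes. The median in CAL27/5FU was -0.10 without the minimum of 10 mean counts and -0.31 by total counts.

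The LRRC8 proteins form the volume-regulated anion channel, another route by which platinum drugs can enter cells. All 5 genes were tested. LRRC8A, the subunit that every such channel needs and the one with the highest mean FPKM, had 4853, 2557 and 5245 counts in CAL27, CAL27/5FU and CAL27/OXA, with log2 ratios of -0.93 and -0.08. LRRC8C had 861, 1090 and 2541 counts and ratios of 0.33 and 1.37, and LRRC8E 809, 540 and 1846 counts and ratios of -0.59 and 1.00. LRRC8C was thus past 2-fold in CAL27/OXA and LRRC8E just under it, and both were more than 2-fold higher in CAL27/OXA than in CAL27/5FU, at 1.04 and 1.59. When counts were scaled by library totals, 2 of the 5 genes were past 2-fold in CAL27/OXA against CAL27 and 1 was against CAL27/5FU. LRRC8D, the subunit best known for platinum uptake, had ratios of 0.15 and -0.46. In CAL27/5FU 0 of the 5 genes were past 2-fold. Over all tested genes 8.46% were higher and 6.72% lower in CAL27/5FU, 6.54% higher and 9.28% lower in CAL27/OXA, and 4.18% higher and 8.38% lower between the derivatives.

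Among 9 metalloreductases and other copper or metal carriers, CYBRD1, a plasma membrane reductase, had 217 counts in CAL27, 885 counts in CAL27/5FU and 591 counts in CAL27/OXA, with log2 ratios of 2.01 (1.81 to 2.24) and 1.25 (1.03 to 1.49). It was the one gene of the list past 2-fold in CAL27/5FU. STEAP4, a metalloreductase of endosomes and the cell surface, had 149, 240 and 76 counts and ratios of 0.67 and -1.14, so the derivatives lay on either side of CAL27. The other 7 genes were within 2-fold in all 3 comparisons, among them APP, the most abundant, with -0.21 and -0.11. Per direction and comparison, between 4.18% and 9.28% of all tested genes were past 2-fold.

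The chaperones and mitochondrial copper factors numbered 12, all tested. SCO2, which helps to insert copper into cytochrome c oxidase, had 155, 234 and 76 counts and log2 ratios of 0.58 in CAL27/5FU and -1.19 in CAL27/OXA. It was the one gene of the list past 2-fold, in CAL27/OXA and against CAL27/5FU, where its ratio was -1.78. SOD1, the copper enzyme served by CCS and the most abundant of the list, had -0.25 and -0.05. COX17, the copper donor of mitochondria, had 617, 366 and 814 counts and ratios of -0.76 and 0.21. Of 12 genes that act in the trafficking of ATP7A and ATP7B, and of 9 genes linked to cuproptosis, a copper-dependent cell death, 0 were past 2-fold in any comparison. Of all tested genes, between 4.18% and 9.28% were past 2-fold in a single direction of a single comparison. In CAL27/OXA against CAL27, 6.54% were higher and 9.28% lower. The share past 2-fold in either direction in any comparison is larger and was not computed. Whether 0 calls in the trafficking and cuproptosis lists is fewer than that share would give was thus not tested. VPS29, of the retromer, and CDKN2A had the highest mean FPKM of these lists, with ratios of 0.23 and 0.29 for VPS29 and 0.05 and 0.25 for CDKN2A.

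The copper enzymes of the secretory route, which receive their copper through ATP7A or ATP7B, had 12 tested genes of 16. In CAL27/5FU 2 were more than 2-fold higher and 0 lower, and in CAL27/OXA 4 were higher and 2 lower. The shares over all tested genes were 8.46% higher and 6.72% lower in the first comparison and 6.54% higher and 9.28% lower in the second. MOXD1, a monooxygenase related to dopamine beta-hydroxylase, had 238, 995 and 1189 counts and log2 ratios of 2.05 and 2.12, and LOXL3, a lysyl oxidase, 49, 160 and 150 counts and ratios of 1.66 and 1.39. These 2 genes were higher in both derivatives.

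CP, which encodes the copper ferroxidase ceruloplasmin, had 561 counts in CAL27, 399 counts in CAL27/5FU and 6 counts in CAL27/OXA. It was far lower in CAL27/OXA than in the other 2 libraries, with log2 ratios of -0.50 (-0.69 to -0.31) and -6.29 (-8.19 to -5.61). HEPHL1, a related ferroxidase, had 135, 80 and 419 counts and ratios of -0.75 and 1.43. AOC2 had 1.15 and DBH -1.33 in CAL27/OXA, and LOXL4 was past 2-fold only against CAL27/5FU, at -1.83. PAM, which had the highest FPKM averaged over the 3 libraries, had -0.10 and -0.46.

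Metallothioneins store copper and zinc and bind platinum through their cysteines. Of 12 genes with MTF1, their metal-responsive activator, 6 were tested. MT2A had 49847 counts in CAL27, 64295 counts in CAL27/5FU and 189646 counts in CAL27/OXA, with log2 ratios of 0.36 and 1.74, and was the most abundant gene of the list. MT1E had 17089, 20648 and 41567 counts and ratios of 0.27 and 1.09, and MT1M 76, 258 and 500 counts and ratios of 1.73 and 2.50. These 3 genes were past 2-fold in CAL27/OXA, and MT1M also in CAL27/5FU. Of all tested genes, 6.54% were higher and 9.28% lower in CAL27/OXA, and 8.46% higher and 6.72% lower in CAL27/5FU. MT1X differed in direction, with 6415, 2813 and 2876 counts and ratios of -1.20 and -1.35. MTF1 had 0.26 and -0.11. The MT1 and MT2A genes are related in sequence, so some reads may have been split between them, which was not tested.

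**Figure D4:**
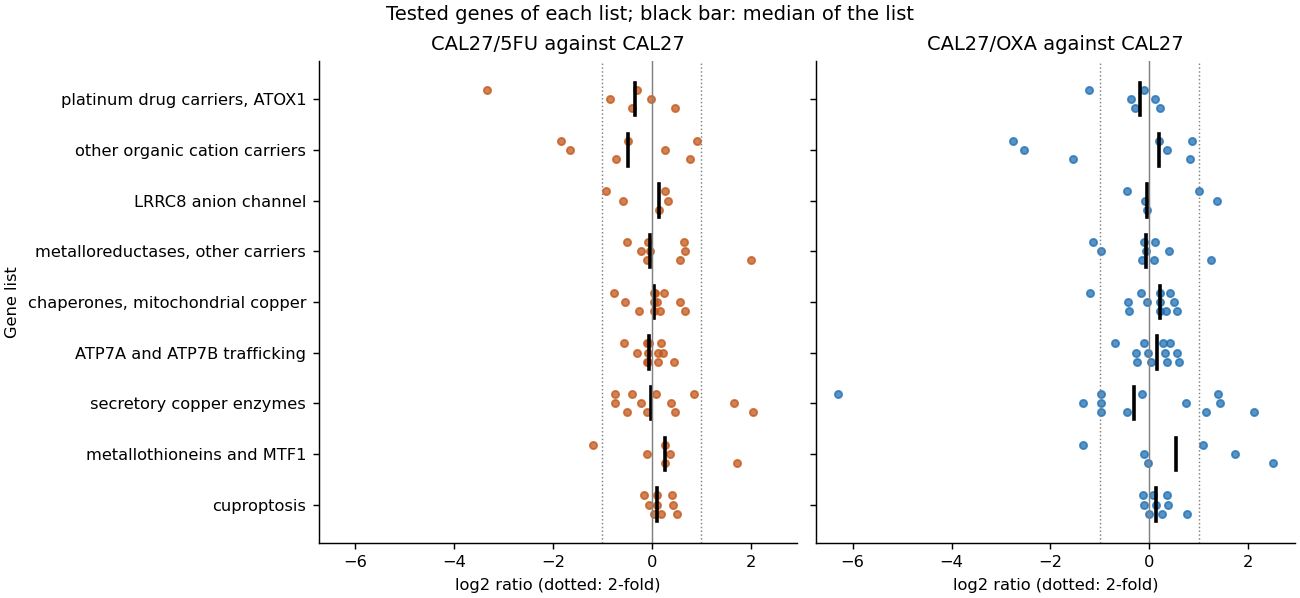
Log2 ratios of the tested genes of each list, 1 point per gene, for CAL27/5FU (left) and CAL27/OXA (right) against CAL27, with the median of each list as a black bar and 2-fold as dotted lines. Points for trafficking and cuproptosis genes all lie within 2-fold, while the secretory enzymes reach from -6.29 to 2.12 in CAL27/OXA.

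The 72 tested genes of these lists together had 4 higher and 3 lower genes in CAL27/5FU, 5.56% and 4.17%, where 8.46% and 6.72% of all tested genes were past 2-fold. In CAL27/OXA 9 were higher and 8 lower, 12.5% and 11.1%, where 6.54% and 9.28% of all tested genes were. CAL27/OXA against CAL27/5FU gave 4 higher and 5 lower genes, 5.56% and 6.94%, against 4.18% and 8.38%.

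The values around each gene on its chromosome were set beside its own, over the 5 nearest tested genes on each side. Around SLC22A3 these 10 genes had a median log2 ratio of -0.23 in CAL27/5FU and -0.03 in CAL27/OXA, with lowest values of -1.29 and -0.67, so none went as low as SLC22A3. SLC31A2 and SLC31A1 share most of their neighbours, among them FKBP15, and each is itself counted among the neighbours of the other. Around SLC31A1 8 of 10 genes had negative ratios in CAL27/5FU, with a median of -0.47, and around SLC31A2 7 of 10, with a median of -0.13. Around SLC22A3 8 of 10 were negative as well, and over all tested genes 6882 of 13676. In CAL27/OXA 6 of 10 were negative around SLC31A1 and around SLC31A2, with medians of -0.16 and -0.10. For the 10 neighbours of ATP7A the medians were -0.15 and -0.09, for those of ATP7B 0.18 and -0.04, and for those of ATOX1 -0.02 and 0.07 in CAL27/5FU and CAL27/OXA.

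**Figure D5:**
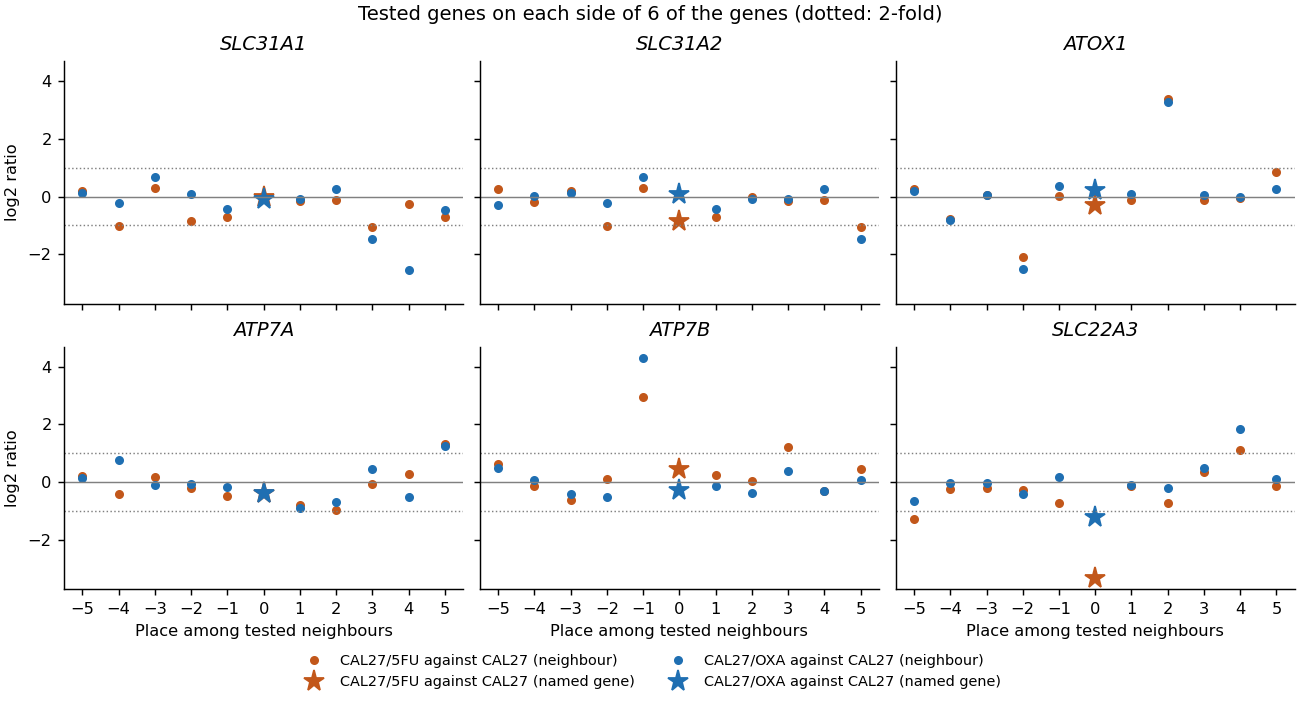
Log2 ratios of 6 of the genes (stars, at place 0) and of the 5 nearest tested genes on each side (points) for CAL27/5FU and CAL27/OXA against CAL27, by place along the chromosome and not to distance. The stars of SLC22A3 lie below all 10 of its neighbours in both comparisons.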

How the data were processed

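RNA-seq values of 3 libraries were used, 1 each for CAL27, CAL27/5FU and CAL27/OXA. The authors deposited raw read counts per gene symbol and FPKM values. The submitters' processing notes name HISAT2 2.0.5, CASAVA 1.8 and GRCh38, and the study's methods name DESeq2. The counting tool, its strand setting and the annotation are not given in the sources used here. For 100% of the 14367 genes counted in all 3 libraries, counts, totals and FPKM gave 1 gene length within 0.1%, so FPKM is scaled by total counts alone. A further 3 columns of per-sample values in each table carry names like second libraries of the same lines, but match no sample label, so they were left aside and the ratios were not checked against them.

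Counts were scaled with TMM factors of 0.932, 1.05 and 1.02 (edgeR 4.0.16, R 4.3.3) and compared as log2 CPM (prior count 2) in the 13676 genes that averaged 10 counts or more. A gene past 2-fold was called. Ratios have exact 95% Clopper-Pearson intervals and levels exact Poisson intervals (scipy 1.17.1), and the floor was 3 counts. The ratio computation was tested on simulated counts that held counting error only. This does not bear on differences between libraries of one line. Positions and overlaps come from GENCODE 29 (GRCh38), which gave 13392 tested genes a position. Its gene models need not be those that were counted. Named were the 8 genes, in each list the genes past 2-fold and the one with the highest mean FPKM, the 3 genes nearest in ratios to a called gene, markers, neighbours past 2-fold, and COX17, LRRC8D and MTF1, chosen after their values were seen. Some genes under this rule are not reported here. The genes and lists were chosen with earlier results of these data known. Alternatives were DESeq2's median-of-ratios, total-count and upper-quartile scaling, other count minimums (1 count in any library, a mean of 50), prior counts of 0.5 and 5, FPKM with pseudocounts of 1 and 0.1, and calls by the whole interval.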

Additional observations from a re-analysis of the deposited data

Results flagged for a closer look

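In 3 genes the derivatives moved in opposite directions from CAL27 under TMM scaling, each with a counting interval that did not include equality. By total counts these directions held, but the log2 ratio of ATOX1 in CAL27/5FU was -0.13 and that of ATP7B in CAL27/OXA -0.15. Both were nearer to equality than by TMM. SLC31A2 was lower in CAL27/5FU and slightly higher in CAL27/OXA, and CAL27/OXA against CAL27/5FU gave a log2 ratio of 0.94. ATOX1 showed the same order with 0.52, and ATP7B the opposite order with -0.75. With 1 library per line the differences were not tested, and all 3 were within 2-fold. The lower bound for SLC31A2 in CAL27/OXA was all but at equality (7.1e-05), and most of its exonic bases are shared with FKBP15.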

How the results depend on the processing

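The 6 tested genes had 162 log2 ratios under alternatives. Of these, 137 stayed within the counting interval of the reported value and 25 moved outside it. The 137 include the ratios under other count minimums, which change only the genes kept and so could not move a ratio. Among called values, all of them of SLC22A3, 0 changed sign. The call of SLC22A3 as lower in CAL27/5FU was lost only from FPKM with a pseudocount of 1 (0 genes called), where its call as higher in CAL27/OXA than in CAL27/5FU was lost as well (0). Its call in CAL27/OXA against CAL27 was lost from FPKM with pseudocounts of 1 (0) and 0.1 (0) and when the whole interval had to be past 2-fold (0). Without the minimum of 10 mean counts, 2 genes were lower in CAL27/OXA, the second being SLC47A1. The cause was not tested, other than that a pseudocount of 1 exceeds the FPKM of SLC22A3.

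Scaling by total counts moved the median over all tested genes to a log2 ratio of 0.17 in CAL27/5FU and 0.14 in CAL27/OXA against CAL27. The share of higher genes among those past 2-fold went from 55.7% to 67.2% in CAL27/5FU, and to 65.6% from FPKM with a pseudocount of 0.1. In CAL27/OXA it was 41.3% and 51.1% by total counts. Apart from SLC31A1 in both derivatives, and ATP7A between the derivatives (0.02 to -0.02), every ratio of the 6 genes kept its sign under all 9 alternatives. Those that only set another count minimum could not change a sign. With 16350 genes tested, without the minimum, 1899 and 1555 genes were past 2-fold in CAL27/5FU, and from FPKM with a pseudocount of 1, 503 and 311. By total counts 1 organic cation carrier of the list became higher in CAL27/5FU (0 by TMM), and the LRRC8 genes called higher went from 1 to 2 in CAL27/OXA against CAL27 and from 2 to 1 against CAL27/5FU. The median of the metallothionein list in CAL27/OXA went from 0.53 to -0.07 without the minimum. No paired analysis was possible because each line had 1 library with a sample label. Depth limits SLC22A2 and SLC47A1, and, with 10 counts in CAL27/5FU, the precision of SLC22A3.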

Other observations

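Several genes that lie among the 5 tested neighbours of a member were past 2-fold. NMUR2, near ATOX1, had log2 ratios of 3.38 in CAL27/5FU and 3.28 in CAL27/OXA against CAL27, and FAT2, a cadherin of the FAT family also near ATOX1, had -2.08 and -2.52. CCDC70, beside ATP7B, had 2.96 and 4.31, and NEK3, a kinase near ATP7B, 1.22 and 0.40. BSPRY, near SLC31A1, had -0.25 in CAL27/5FU but -2.56 in CAL27/OXA, WDR31 -1.06 and -1.47, and SLC46A2 -1.01 and -0.23. Near ATP7A, HMGN5, which encodes a nucleosome-binding protein, had 1.32 and 1.26, and MAGEE1 -0.41 and 0.77, with 1.18 between the derivatives. Near SLC22A3, PDE10A, a cyclic nucleotide phosphodiesterase, had 1.12 and 1.84, and ACAT2, an enzyme of acetyl-CoA metabolism, -1.29 and -0.67.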
